A study of Homo sapiens with 16 samples.

Results

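The HLA class I genes and the genes that load peptides onto their products were followed in NCI-H1299, a human cell line grown from a non-small cell carcinoma of the lung. The 9 genes were taken by name: the heavy chains HLA-B, HLA-C, HLA-E and HLA-F, the light chain B2M, the peptide transporter subunits TAP1 and TAP2, the loading factor TAPBP and the transcriptional activator NLRC5. They are 9 of the 56865 genes that the read tables could be summed into, and all 9 passed the filter on low counts that left 15687 genes to test. By GENCODE 29 (GRCh38), 7 of the 9 lie in the major histocompatibility complex on chromosome 6, between the start of HLA-F (29722775) and the end of TAPBP (33314387). B2M lies at chr15:44711487-44718877 and NLRC5 at chr16:56989485-57083531.

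Poly(A) RNA had been sequenced in 16 libraries, 4 in each of 4 groups. Y220C MS78 and Y220C DMSO are cells of a stable line that expresses the p53 mutant Y220C, given MS78 at 10 µM or the vehicle for 24 h. Null MS78 and Null DMSO are p53-null NCI-H1299 cells given the same treatments. MS78 is a bifunctional compound designed to recruit the acetyltransferase p300/CBP to p53-Y220C, so the p53-null line lacks its intended protein. G418 at 500 µg/mL was in the medium of the Y220C line alone, so effects of the line, of G418 and of the transgene cannot be told apart. Whether the stable line is 1 clone, and which promoter drives the transgene, is not given in the labels. Nor do they say if replicates were separate cultures, and the p-values below therefore measure only the spread among these libraries, which may be technical.

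Total reads were 20.3 M to 27.7 M per library. Of the markers of this carcinoma line, KRT8, KRT18 and VIM had 3748 to 147072 reads per library, while the epithelial genes EPCAM and CDH1 had 3 to 42. Reads of leukocytes were found in 8 libraries, which are replicate 1 of each DMSO group and replicates 2, 3 and 4 of each MS78 group. PTPRC, the gene of the pan-leukocyte antigen CD45, had 55 to 99 reads in these 8 and 0 to 1 in the other 8, so that treatment and leukocyte reads move together in both lines. The summed level of 18 other leukocyte markers was 58.8 to 124 CPM (reads scaled to the TMM-normalized library size) with PTPRC reads, against 3.24 to 12.3 CPM without them, and 12 of the 18 did not overlap between the sets. The share of all genes that did not overlap between these sets was not counted. The cytotoxic genes GZMB and PRF1 and the T-cell genes CD3D, CD3E and CD3G were at 0 or 1 read in every library without PTPRC reads. The B-cell gene MS4A1 and the monocyte genes CD14 and LYZ had 0 to 8 reads in both sets. In bulk RNA, fewer cells of a type and less RNA per cell cannot be told apart.

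Class I molecules present peptides from inside the cell to CD8 T cells and natural killer cells. Peptides made by the proteasome are pumped into the endoplasmic reticulum by the TAP1-TAP2 transporter, and are fitted there to a heavy chain bound to B2M by a loading complex of TAPBP (tapasin), CALR and PDIA3. Many of these genes are switched on by interferon through IRF1 and by NLRC5, which acts through the SXY module of their promoters, bound by the RFX, CREB and NF-Y factors. Leukocytes express all of these genes too.

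Promoters are where these factors are known to act, and 5 are printed because their genes showed the main patterns below. Each is the run of 250 bases before the annotated start, from RefSeq (GRCh38.p14), 5′ to 3′ on the gene's strand, with motif matches in capitals.
HLA-B: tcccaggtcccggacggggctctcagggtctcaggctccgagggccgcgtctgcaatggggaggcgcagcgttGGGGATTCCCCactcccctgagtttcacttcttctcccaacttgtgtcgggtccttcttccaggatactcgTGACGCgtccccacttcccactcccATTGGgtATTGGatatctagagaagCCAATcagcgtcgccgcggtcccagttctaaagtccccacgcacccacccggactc
HLA-F: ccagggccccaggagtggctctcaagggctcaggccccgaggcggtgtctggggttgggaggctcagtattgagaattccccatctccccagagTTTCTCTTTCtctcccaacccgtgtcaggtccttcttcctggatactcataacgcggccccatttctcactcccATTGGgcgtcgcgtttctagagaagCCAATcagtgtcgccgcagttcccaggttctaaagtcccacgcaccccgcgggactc
B2M: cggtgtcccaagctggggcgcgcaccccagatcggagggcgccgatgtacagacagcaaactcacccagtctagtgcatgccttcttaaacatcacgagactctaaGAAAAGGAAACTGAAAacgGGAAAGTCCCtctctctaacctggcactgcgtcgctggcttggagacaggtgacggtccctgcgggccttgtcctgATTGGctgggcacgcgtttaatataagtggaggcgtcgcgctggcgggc
TAP1: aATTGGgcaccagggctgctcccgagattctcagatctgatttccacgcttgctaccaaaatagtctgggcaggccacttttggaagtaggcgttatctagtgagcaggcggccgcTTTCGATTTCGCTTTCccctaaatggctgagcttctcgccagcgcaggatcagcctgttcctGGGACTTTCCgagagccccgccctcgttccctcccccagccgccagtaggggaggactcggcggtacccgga
TAP2: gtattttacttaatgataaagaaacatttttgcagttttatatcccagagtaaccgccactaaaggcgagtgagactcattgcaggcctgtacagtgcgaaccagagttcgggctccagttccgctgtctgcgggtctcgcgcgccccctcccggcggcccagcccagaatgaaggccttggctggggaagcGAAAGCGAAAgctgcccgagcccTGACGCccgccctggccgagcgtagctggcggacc
The HLA-B run is chr6:31357180-31357429 on the minus strand, and the HLA-F run is chr6:29723184-29723433 on the plus strand. The B2M run is chr15:44711267-44711516 on the plus strand. The TAP1 run is chr6:32853705-32853954 on the minus strand, and the TAP2 run is chr6:32838740-32838989 on the minus strand.

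Capitals mark 4 motifs searched on both strands of the 300 bases around the start (250 before it and 50 from it on). The core of the interferon-stimulated response element (ISRE), searched as TTTC, any 2 bases and TTTC, was held by 3.57% of 35116 RefSeq promoters. CCAAT, the NF-Y site of the module, was held by 34.6% of promoters. TGACGC, a core of the X2 box that CREB-type factors bind, was held by 9.14%, and the NF-kB motif by 5.91%. RefSeq windows matched 7 of the 9 genes, in 8 windows, while HLA-E and NLRC5 had no entry. The ISRE core was in the windows of HLA-F, B2M, TAP1, TAP2 and TAPBP, in overlapping pairs in B2M, TAP1 and TAPBP. CCAAT was found 3 times in HLA-B, 4 times in HLA-C, 2 times in HLA-F and 1 time each in B2M and TAP1. TGACGC stood in HLA-B, HLA-C and TAP2, and the NF-kB motif in HLA-B, HLA-C, B2M, TAP1 and TAPBP. A second TAP1 window, further into the gene, held none of the 4. A match is only a match of letters and not a measured site.

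**Figure D1:**
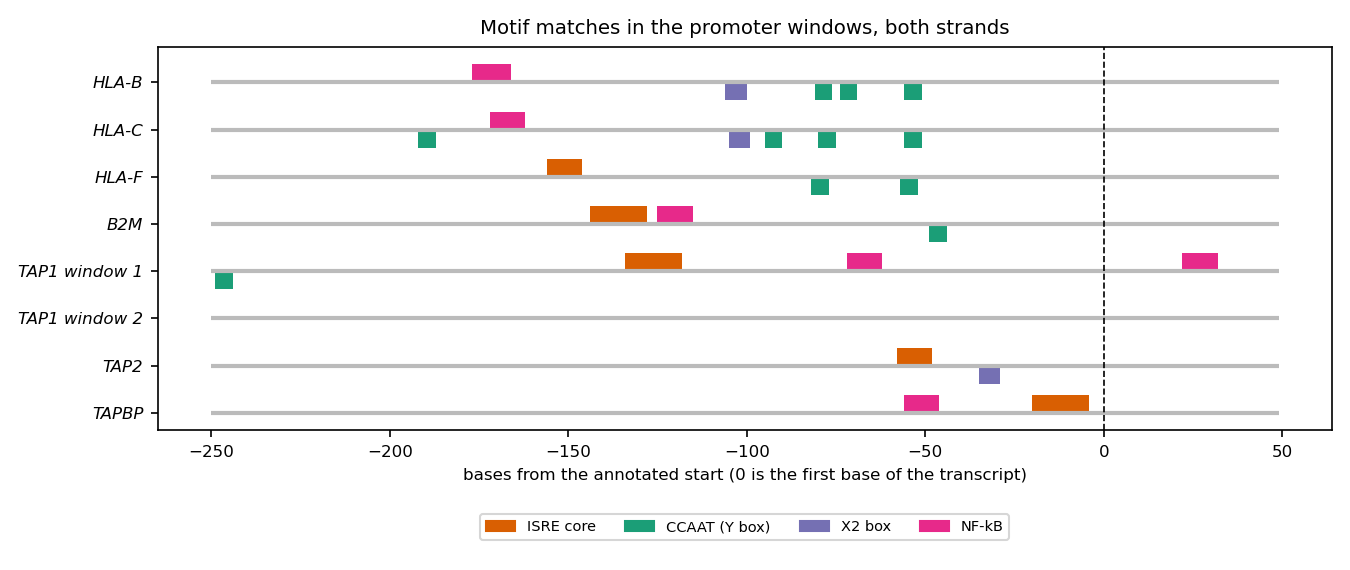
Matches of 4 motifs in the promoter windows of 7 genes, by distance in bases from the annotated start (dashed line), pooled over both strands. The ISRE core (orange) lies between -156 and -5 in 5 genes, and CCAAT (green) has matches between -82 and -45 in HLA-B, HLA-C, HLA-F and B2M.

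Per length of transcript (TPM, the authors' values summed per gene), the 9 genes kept 1 order in all 4 groups. From the top this order was B2M, HLA-B, HLA-C, HLA-E, TAPBP, TAP1, TAP2, HLA-F and NLRC5. No 2 neighbours overlapped between libraries of the same group, although TAPBP and TAP1 came close in Y220C MS78 (lowest TAPBP library 36.9 TPM, highest TAP1 library 35.3 TPM), as did HLA-F and NLRC5 there (1.63 and 1.52 TPM). B2M averaged 829 ± 44.5 TPM in Y220C MS78, 660 ± 31.8 in Y220C DMSO, 704 ± 36 in Null MS78 and 640 ± 33.9 in Null DMSO (SD, n = 4 each). NLRC5 averaged 0.757 ± 0.545, 0.535 ± 0.136, 0.598 ± 0.224 and 0.479 ± 0.137 TPM in the same groups. TAP1, the transporter subunit with the higher level, averaged 32.8 ± 1.69 TPM in Y220C MS78, against 13.6 ± 1.43 TPM for its partner TAP2 in that group. The quantifier divides reads between HLA-B and HLA-C, and TAP2 shares its span and strand with the gene AL669918.1 (482 to 932 reads per library). The levels of HLA-B, HLA-C and TAP2 are therefore uncertain.

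**Figure D2:**
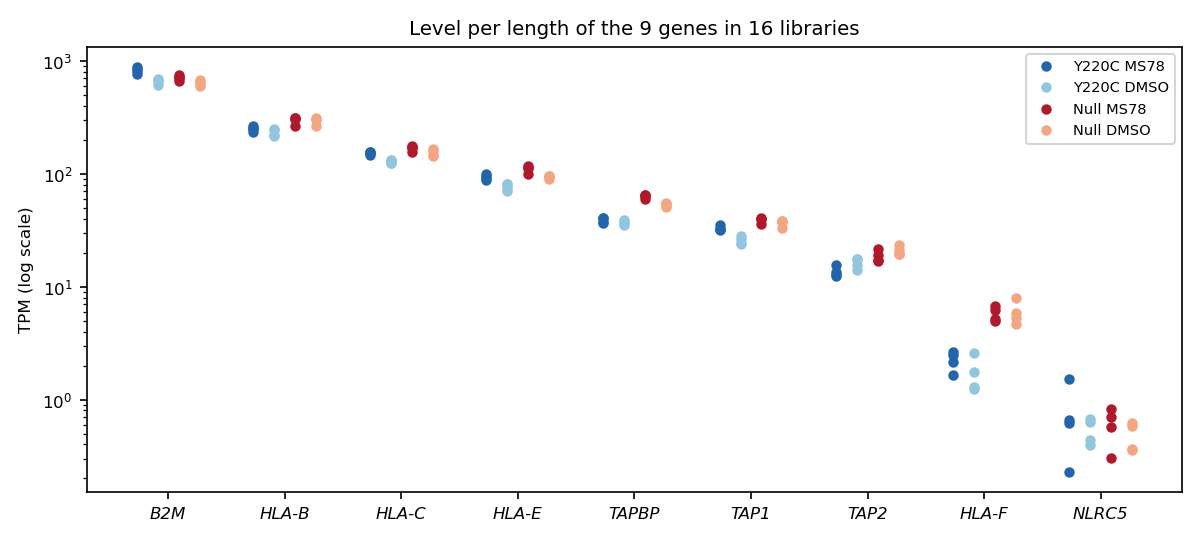
Level per length (TPM, log scale) of the 9 genes in each of 16 libraries, genes ordered by mean level and groups by color. B2M lies at or above 598 TPM and NLRC5 at or below 1.52 TPM in every library.

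With MS78 in p53-Y220C cells, 8 of the 9 genes changed: 7 rose and TAP2 fell, by edgeR's quasi-likelihood test at an adjusted p under 0.05. Most of the rises were small, between 1.09-fold and 1.31-fold, and HLA-F at 2.02-fold was apart from them. Of all genes tested in this comparison 48.5% passed the threshold, 24.9% upward and 23.6% downward. The median log2 fold change was 0.29 over the 9 genes and -0.01 over all genes. In p53-null cells 4 of the 9 changed: HLA-C, HLA-E and TAPBP rose and TAP2 fell, where 28.1% of all genes passed (14.8% upward, 13.3% downward). The median there was 0.11 over the 9 genes and 0.01 over all genes.

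**Figure D3:**
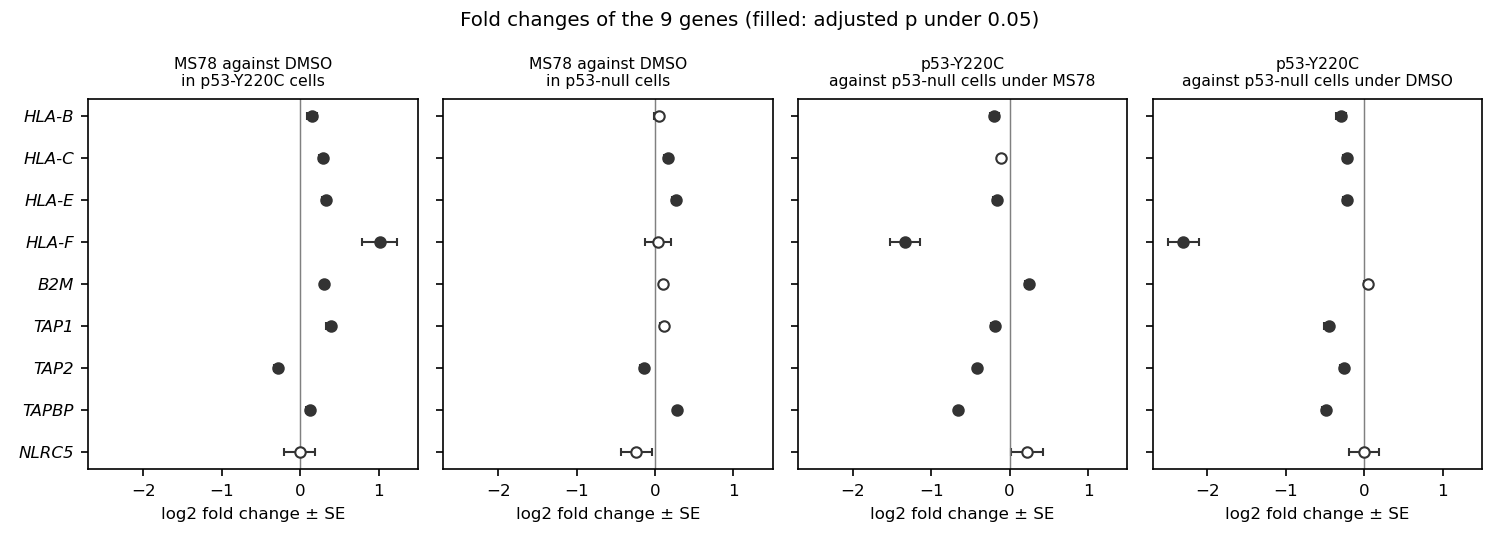
Log2 fold changes of the 9 genes with their standard errors in 4 comparisons, filled where the adjusted p of edgeR's quasi-likelihood test is under 0.05. HLA-F has the largest values in 3 of the panels, 1.02, -1.33 and -2.31, and near 0 (0.04) for MS78 in p53-null cells.

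HLA-B, a classical heavy chain, had 249, 260, 263 and 258 CPM in the 4 Y220C MS78 libraries and 243, 253, 216 and 216 CPM in the Y220C DMSO libraries. It had 266, 301, 305 and 308 CPM in Null MS78 and 299, 291, 298 and 252 CPM in Null DMSO. MS78 and DMSO libraries overlapped in both lines, and in Null MS78 replicate 1 was well below the other 3. HLA-B rose by a log2 of 0.15 (SE 0.06, adjusted p = 0.0418, edgeR) with MS78 in Y220C cells, while in null cells the log2 fold change was 0.05 (adjusted p = 0.594). That rise did not pass with a term for PTPRC reads in the fit (0.10, adjusted p = 0.166) or with counts rebuilt from TPM (0.14, adjusted p = 0.0962). Nor did it pass in 8 of the 16 fits that left out 1 library. The lowest of these values was 0.12 without Y220C DMSO replicate 4 (adjusted p = 0.132).

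HLA-C, the other classical heavy chain read here, stood at 151, 157, 152 and 148 CPM in Y220C MS78 and at 129, 132, 120 and 118 CPM in Y220C DMSO. In null cells it stood at 151, 163, 171 and 169 CPM with MS78 and at 155, 140, 153 and 136 CPM with DMSO. The groups were apart in Y220C cells and overlapped in null cells. The rise was 0.29 on the log2 scale in Y220C cells (SE 0.05, adjusted p = 7.86e-05, edgeR) and 0.16 in null cells (SE 0.05, adjusted p = 0.0165). The null rise did not pass with the PTPRC term (0.12, adjusted p = 0.0718) and lost the call without Null DMSO replicates 2 or 4 or Null MS78 replicates 3 or 4 (0.13 to 0.15). HLA-B and HLA-C are close copies with annotated spans that overlap by 2640 bases, and the quantifier divides their reads, so their separate values are uncertain. Summed into 1 count, the pair rose by 0.20 in Y220C cells (adjusted p = 0.00456) and by a value that did not pass, 0.09, in null cells (adjusted p = 0.248).

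HLA-E, which presents signal peptides of other class I chains to natural killer cells, was the heavy chain that rose in both lines without overlap. It had 167, 165, 175 and 172 CPM in Y220C MS78, against 143, 145, 130 and 122 CPM in Y220C DMSO. It had 175, 189, 195 and 199 CPM in Null MS78, against 156, 156, 167 and 149 CPM in Null DMSO. The rises were 0.33 (SE 0.05, adjusted p = 2.29e-05, edgeR) in Y220C cells and 0.27 (SE 0.05, adjusted p = 0.000366) in null cells, and their difference of 0.06 did not pass (adjusted p = 0.601). Within the libraries without PTPRC reads the null value was 0.15 (adjusted p = 0.449), where 1 MS78 library stands against 3 DMSO libraries.

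HLA-F, a nonclassical heavy chain that can reach the surface without peptide, was read far less and changed most. Its libraries held 26, 42, 40 and 26 reads in Y220C MS78 (1.28, 2.04, 2.09 and 1.32 CPM) and 26, 14, 16 and 17 reads in Y220C DMSO (1.11, 0.676, 0.751 and 0.756 CPM). They held 86, 113, 117 and 98 reads in Null MS78 and 103, 103, 82 and 104 reads in Null DMSO (3.34 to 4.85 and 3.53 to 4.44 CPM). In Y220C cells the 2 treatments did not overlap, but the highest DMSO library, the 1 with PTPRC reads, lay just below the lowest MS78 library, the 1 without them. HLA-F rose 2.02-fold there (log2 1.02, SE 0.22, adjusted p = 0.000773, edgeR), and in null cells the log2 fold change was 0.04 (SE 0.17, adjusted p = 0.887). With the PTPRC term the Y220C value was 0.83 (adjusted p = 0.00239). It did not pass within either set of libraries, each with a single library of 1 treatment (0.71, adjusted p = 0.123 with PTPRC reads and 0.81, adjusted p = 0.0999 without), nor with counts rebuilt from TPM (0.40, adjusted p = 0.245).

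The gene is overlapped on the other strand by HLA-F-AS1, which had 29 to 117 reads, and whether the counting used strand is not stated. Summed with HLA-F-AS1, a setting chosen after seeing the data, the Y220C rise was 1.04 (adjusted p = 5.15e-06, edgeR). In Y220C DMSO, HLA-F itself had 14 to 26 reads, fewer than HLA-F-AS1 had in any library. The sum there is thus mostly HLA-F-AS1 and does not test HLA-F alone. The transcript HLA-F-217 held 77.4% ± 12 of the HLA-F reads in Y220C MS78 and 60.6% ± 15.7 in Y220C DMSO, against 81.6% ± 4.79 in Null MS78 and 82.6% ± 11.2 in Null DMSO (SD, n = 4 each). These shares rest on few reads in the Y220C groups and were not tested.

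**Figure D4:**
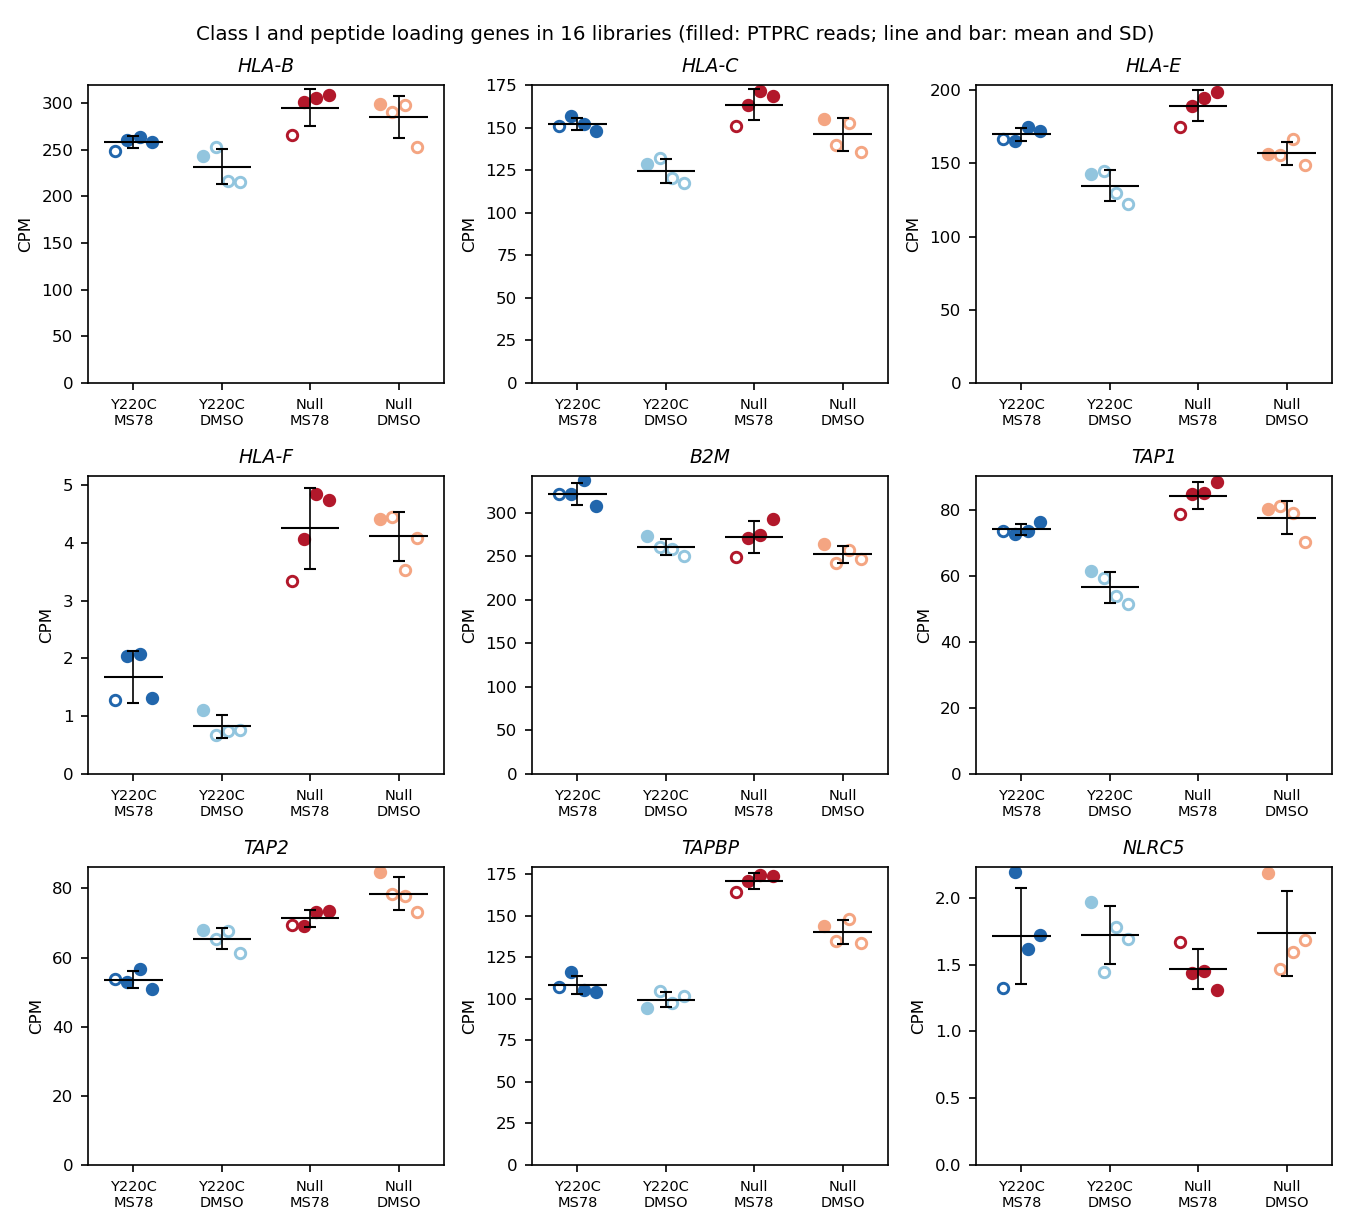
CPM of the 9 genes in each library, 4 libraries per group, with the group mean (line) and SD (bar), and filled points for libraries with PTPRC reads. HLA-F averages 1.68 and 0.824 CPM in Y220C MS78 and Y220C DMSO and over 4 CPM in both null groups, and TAP2 averages less with MS78 than with DMSO in both lines (53.6 and 65.5 CPM in Y220C cells, 71.3 and 78.5 CPM in null cells).

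B2M, the light chain that every class I heavy chain needs, had 321, 321, 338 and 307 CPM in Y220C MS78 and 273, 260, 259 and 251 CPM in Y220C DMSO. It had 249, 272, 274 and 293 CPM in Null MS78 and 264, 242, 257 and 247 CPM in Null DMSO. All Y220C MS78 libraries were above all 12 others. B2M rose by 0.30 in Y220C cells (1.23-fold, SE 0.05, adjusted p = 1.10e-05, edgeR). With 3 MS78 libraries against 1 DMSO library, all with PTPRC reads, the value was 0.25 (adjusted p = 0.00631), and with 1 MS78 library against 3 DMSO libraries without such reads it was 0.33 (adjusted p = 0.00467). In both, the lone library was assumed to vary like the others. In null cells the value was 0.11 and did not pass (adjusted p = 0.0866). It did pass with counts rebuilt from TPM (0.18, adjusted p = 0.0291) and in the fit without Null MS78 replicate 1 (0.15, adjusted p = 0.0153). Of the B2M reads, the protein-coding transcript B2M-204 held 40.1% ± 5.30 in Y220C MS78 and 44.1% ± 3.92 in Y220C DMSO (SD, n = 4 each). The transcript B2M-212, annotated as a target of nonsense-mediated decay, held 40.9% ± 2.99 and 39.0% ± 3.08 in these groups, so a gene-level value here mixes both kinds of transcript.

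TAP1, an ATP-binding subunit of the peptide transporter, had 73.6, 72.9, 73.8 and 76.6 CPM in Y220C MS78 and 61.6, 59.4, 53.9 and 51.7 CPM in Y220C DMSO. Its null libraries had 78.8, 85.1, 85.1 and 88.7 CPM with MS78 and 80.4, 81.3, 79.3 and 70.2 CPM with DMSO. The Y220C groups were apart and the null groups overlapped. TAP1 rose 1.31-fold in Y220C cells (log2 0.39, SE 0.06, adjusted p = 8.60e-06, edgeR). Within the sets of libraries the values were 0.28 with PTPRC reads and 0.42 without, again with a single library of 1 treatment in each set. In null cells its log2 fold change was 0.12 (adjusted p = 0.120).

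TAP2, the other subunit of the same transporter, went the opposite way. It had 53.8, 52.9, 56.7 and 51.0 CPM in Y220C MS78, against 67.8, 65.3, 67.6 and 61.2 CPM in Y220C DMSO. It had 69.4, 69.1, 73.1 and 73.5 CPM in Null MS78, against 84.6, 78.4, 77.7 and 73.3 CPM in Null DMSO. Y220C libraries did not overlap between treatments, and in null cells the lowest DMSO library lay within the MS78 range. TAP2 fell by 0.29 in Y220C cells (SE 0.05, adjusted p = 5.73e-05, edgeR) and by 0.14 in null cells (SE 0.05, adjusted p = 0.0314). The null fall did not pass without Null DMSO replicate 1 (-0.10, adjusted p = 0.151), Null MS78 replicate 1 or Null MS78 replicate 2, with counts rebuilt from TPM (-0.12) or within the libraries without PTPRC reads (-0.14). Within the libraries without PTPRC reads the Y220C fall was 0.27 and just missed the threshold (adjusted p = 0.0510), and with counts rebuilt from TPM it was 0.22 (adjusted p = 0.0830). TAP2 shares its whole span and its strand with AL669918.1, a gene with 482 to 932 reads per library. Summed with it, again a setting chosen after seeing the data, TAP2 fell by 0.21 in Y220C cells (adjusted p = 9.90e-05) and by 0.13 in null cells (adjusted p = 0.00897).

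TAPBP, which bridges the transporter and the waiting heavy chain, had 107, 116, 105 and 104 CPM in Y220C MS78 and 94.4, 105, 97.5 and 102 CPM in Y220C DMSO. It had 164, 171, 174 and 174 CPM in Null MS78 and 144, 135, 148 and 134 CPM in Null DMSO. Y220C libraries overlapped between treatments, and null libraries did not. The rise was 0.12 in Y220C cells (SE 0.05, adjusted p = 0.0330, edgeR) and 0.29 in null cells (SE 0.04, adjusted p = 3.66e-05). The Y220C rise did not pass with the PTPRC term (0.11, adjusted p = 0.0667), without the filter on low counts (0.11, adjusted p = 0.072) or with counts rebuilt from TPM (0.11, adjusted p = 0.0646). It also did not pass without Y220C DMSO replicates 1 or 3 or Y220C MS78 replicate 2 (0.09 to 0.11). Within the libraries without PTPRC reads neither passed, at 0.08 in Y220C cells (adjusted p = 0.524) and 0.24 in null cells (adjusted p = 0.119).

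NLRC5, the class I transactivator, had few reads, and no difference between treatments was detectable. It had 27, 45, 31 and 34 reads in Y220C MS78 and 46, 30, 38 and 38 in Y220C DMSO. It had 43, 40, 35 and 27 reads in Null MS78 and 51, 34, 37 and 43 in Null DMSO. All 4 groups overlapped. Its log2 fold change with MS78 was -0.01 (SE 0.20, adjusted p = 0.976, edgeR) in Y220C cells and -0.24 (SE 0.20, adjusted p = 0.412) in null cells. With counts rebuilt from TPM these values were 0.53 and 0.37, so no direction can be given.

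The difference of the MS78 responses between the lines was tested in the same fit, and 3 of the 9 genes passed, where 26.8% of all genes did (14.4% with the larger value in Y220C cells, 12.4% with the smaller). The responses of HLA-F, B2M and TAP1 were higher in Y220C cells, by 0.97 (SE 0.28, adjusted p = 0.0132), 0.20 (SE 0.06, adjusted p = 0.0263) and 0.27 (SE 0.08, adjusted p = 0.0138). The difference for TAPBP ran the other way, -0.16, and did not pass (adjusted p = 0.0608), although it did by DESeq2 (adjusted p = 0.0446) and with counts rebuilt from TPM (-0.19, adjusted p = 0.0353). For TAP2 it was -0.15 (adjusted p = 0.113). The B2M difference lost its call without Null DMSO replicate 1, Null MS78 replicate 1, Y220C DMSO replicate 4 or Y220C MS78 replicate 3 (0.16 to 0.18). None of the 3 passed within either set of libraries, where the values were 0.68, 0.18 and 0.19 with PTPRC reads and 1.08, 0.33 and 0.39 without. With the PTPRC term all 3 passed, at 0.99, 0.20 and 0.27, and with counts rebuilt from TPM the HLA-F and B2M differences did not (0.40 and 0.19).

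Because leukocyte reads move with MS78, the 9 genes were also read against them. With a term for PTPRC reads fitted beside the 4 group means, none of the 9 genes passed, where 0.982% of all genes did (0.963% upward, 0.0191% downward). At an unadjusted p under 0.05, 5 of the 9 did, namely HLA-B, HLA-C, HLA-F, B2M and TAP1, and DESeq2 called 0 of the 9 at its adjusted threshold. The share of all genes at the unadjusted threshold was not counted, and the 0.982% holds for the adjusted threshold only. The 5 of 9 can therefore not be set against other genes. All 9 values were positive, between 0.01 for TAPBP and 0.38 for HLA-F, with a median of 0.09, against -0.00 over all genes. For comparison, and leaving out PTPRC, which defined the sets, 13 of the 13 other leukocyte markers tested passed upward in that term with a median of 5.90. Of 10 class II genes, which antigen-presenting leukocytes and activated T cells express, 7 passed upward with a median of 4.84. Their summed level was 26.0 to 39.7 CPM with PTPRC reads and 2.36 to 4.01 CPM without. The class II master regulator CIITA had 5 to 28 reads in all libraries and was not among the 7.

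In Null MS78 the single library without PTPRC reads, replicate 1, was the lowest of its group for 7 of the 9 genes, all but TAP2 and NLRC5. In Y220C MS78 the library without them was the lowest for 3 of the 9, HLA-B, HLA-F and NLRC5. The DMSO library with PTPRC reads was the highest of its group for 5 of the 9 genes in each line. How often these libraries were the lowest or highest over all genes was not counted. Some of the 9 genes also varied together within groups, so these counts are not separate observations. The part of leukocyte reads in the differences was not tested beyond the fits given here. Each set of libraries holds a single library of 1 treatment in each line, which was assumed to vary like the others.

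**Figure D5:**
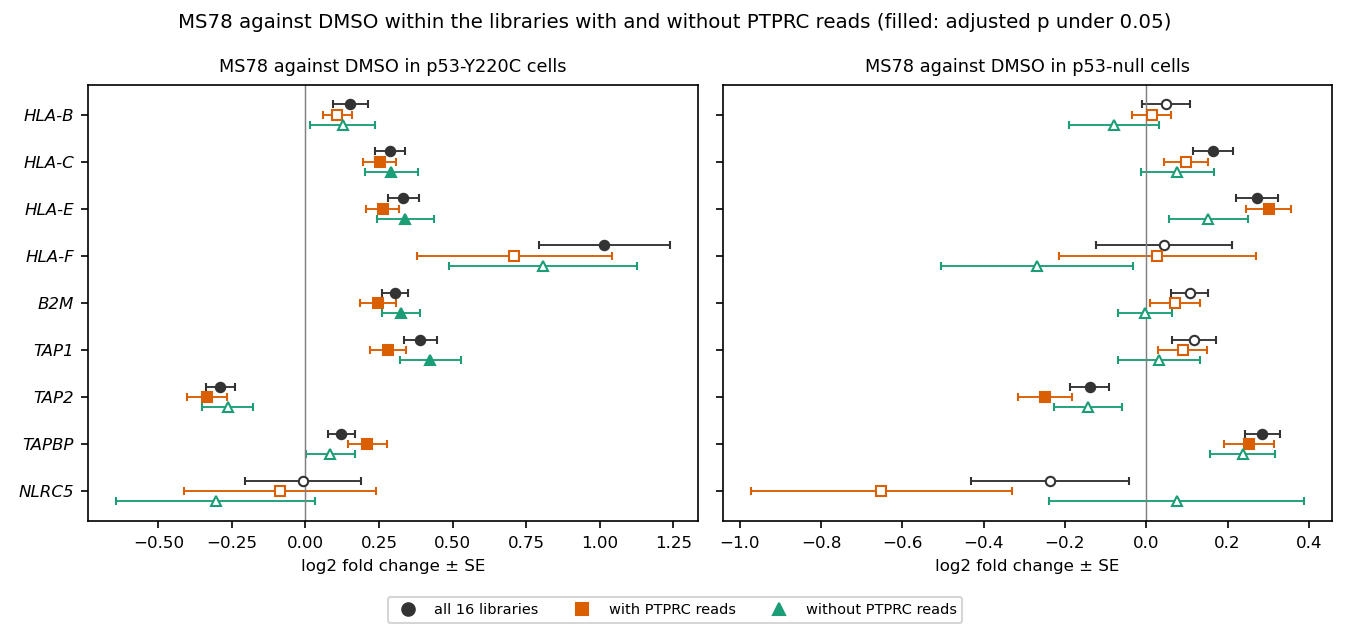
Log2 fold changes with MS78 and their standard errors in all 16 libraries, in the 8 with PTPRC reads and in the 8 without, filled where the adjusted p is under 0.05. In Y220C cells HLA-C, HLA-E, B2M and TAP1 are filled in all 3 fits, although each set holds a single library of 1 treatment in this line, and in null cells no gene is filled in the libraries without PTPRC reads.

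Between the lines, class I genes were lower in Y220C cells. Under DMSO 7 of the 9 were lower and none higher, where 50.2% of all genes passed (24.7% upward, 25.5% downward), and the median log2 fold change was -0.26, against 0.00 over all genes. Under MS78 6 were lower and 1, B2M, was higher, where 61.8% of all genes passed (30.7% upward, 31.2% downward), with a median of -0.18, against -0.01 over all genes. These comparisons use the same libraries as the MS78 comparisons, so the 4 sets of values are not independent of each other.

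HLA-F differed most, with 0.824 ± 0.197 CPM in Y220C DMSO and 4.12 ± 0.424 CPM in Null DMSO (SD, n = 4 each). Its log2 fold change was -2.31 (SE 0.20, adjusted p = 1.01e-08, edgeR) under DMSO and -1.33 (SE 0.19, adjusted p = 2.95e-06) under MS78. TAPBP averaged 99.6 ± 4.56 CPM in Y220C DMSO and 140 ± 7.03 CPM in Null DMSO, a log2 fold change of -0.49 (SE 0.04, adjusted p = 1.59e-08). Under MS78 it was -0.66 (SE 0.04, adjusted p = 8.90e-11), with 108 ± 5.49 CPM in Y220C MS78 and 171 ± 4.72 CPM in Null MS78. TAP1 was lower, with a log2 fold change of -0.46 under DMSO (adjusted p = 1.02e-06) and -0.18 under MS78 (adjusted p = 0.00655). TAP2 was lower too, with -0.26 under DMSO (adjusted p = 0.000119) and -0.41 under MS78 (adjusted p = 3.49e-07).

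The heavy chains HLA-B, HLA-C and HLA-E were lower under DMSO, with log2 fold changes of -0.30, -0.23 and -0.22 (adjusted p = 0.000314, 0.000746 and 0.00166, edgeR). Under MS78 their values were -0.19, -0.10 and -0.16, of which HLA-C did not pass (adjusted p = 0.0731), although it did with the PTPRC term (-0.10, adjusted p = 0.0468) and in fits of the MS78 groups alone, with a replicate block (-0.10, adjusted p = 0.0342) and without it (-0.11, adjusted p = 0.0353). B2M was the exception among the abundant genes: under DMSO it had a log2 fold change of 0.05 (adjusted p = 0.419), with 261 ± 9.16 CPM in Y220C DMSO and 252 ± 9.60 CPM in Null DMSO. Under MS78 it was higher in Y220C cells by 0.24 (adjusted p = 8.77e-05), with 322 ± 12.6 CPM in Y220C MS78 and 272 ± 18.2 CPM in Null MS78. Within the libraries without PTPRC reads, the MS78 comparison of the lines rests on 1 library each and the values of HLA-B, HLA-E and TAP1 did not pass (-0.09, -0.06 and -0.09). Within those with PTPRC reads, the DMSO comparison rests on 1 library each and HLA-E did not pass (-0.14, adjusted p = 0.160).

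Other genes of the pathway were read from lists chosen with earlier results of these data known. Their counts stand beside the shares of all genes that passed, which were 48.5% in Y220C cells (24.9% upward, 23.6% downward) and 28.1% in null cells (14.8% upward, 13.3% downward). Of 6 loading and trimming genes, 3 rose and none fell with MS78 in Y220C cells, with a median of 0.31. Their share that passed in either direction was close to that of all genes (48.5%), while 24.9% of all genes rose. In null cells 1 rose (CANX) and 1 fell (ERAP1), with a median of 0.07. CALR, a chaperone of the loading complex, averaged 899 ± 18.4 CPM in Y220C MS78 and 559 ± 34.6 CPM in Y220C DMSO (log2 0.69, adjusted p = 9.58e-11, edgeR). CANX, which folds new heavy chains, rose by 0.60 and the disulfide isomerase PDIA3 by 0.45 in Y220C cells. The responses of CALR, CANX and PDIA3 differed between the lines by 0.60, 0.47 and 0.38. ERAP1, which trims peptides, had -0.05 in Y220C cells, which did not pass, and fell by 0.23 in null cells (adjusted p = 0.000927).

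The immunoproteasome is the interferon-inducible form of the proteasome that favors class I peptides. Its list of 5 genes holds the catalytic subunit genes PSMB8, PSMB9 and PSMB10 and the activator subunit genes PSME1 and PSME2. Of the 5 genes 4 fell and none rose with MS78 in Y220C cells, where 23.6% of all genes fell, with a median of -0.33 (-0.01 over all genes). In null cells none passed edgeR's test, where 28.1% of all genes did, with a median of -0.10 (0.01 over all genes). At an unadjusted p under 0.05, 1 of the 5 did in null cells, but the share of all genes at that threshold was not counted. The catalytic subunit genes PSMB9 and PSMB10 fell by 0.38 (adjusted p = 0.0412) and 0.34 (adjusted p = 0.0126), and the activator subunit genes PSME1 and PSME2 by 0.33 and 0.25. PSMB8 did not pass, with 19.7 CPM on average in Y220C MS78 and 20.2 CPM in Y220C DMSO. The response of PSME1 differed between the lines (-0.36, adjusted p = 0.000917). PSMB9, whose gene overlaps TAP1 on the opposite strand, had 5.11, 6.33, 7.14 and 5.99 CPM in Y220C MS78 and 9.73, 8.79, 7.51 and 5.82 CPM in Y220C DMSO, so these groups overlapped. In null cells it had 16.7 to 22.3 CPM with MS78 and 17.5 to 22.3 CPM with DMSO. It was lower in Y220C cells, with a log2 fold change of -1.61 under MS78 (adjusted p = 2.27e-09) and -1.34 under DMSO (adjusted p = 3.58e-08). Of the 3 constitutive catalytic subunits, PSMB6 fell by 0.14 with MS78 in Y220C cells and none passed in null cells. At an unadjusted p under 0.05, 0 of the 3 did in null cells, where the share of all genes was again not counted. All 3 were lower in Y220C cells under both treatments (as were 31.2% of all genes under MS78 and 25.5% under DMSO).

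Of 17 transactivators and their partners, 6 rose and 4 fell with MS78 in Y220C cells, with a median of 0.03, and 3 rose and 3 fell in null cells, with a median of 0.06. These shares were near those of all genes (48.5% passed in Y220C cells and 28.1% in null cells). IRF1, an activator of class I and TAP1 promoters, had 12.9, 14, 16 and 12.9 CPM in Y220C MS78 and 10.9, 11.2, 10.1 and 9.96 CPM in Y220C DMSO. It had 10.9, 12.8, 13.9 and 14.1 CPM in Null MS78 and 16.5, 14.2, 15.6 and 15.8 CPM in Null DMSO. It rose by 0.40 in Y220C cells (adjusted p = 0.000833, edgeR) and fell by 0.27 in null cells (adjusted p = 0.0209), with no overlap of treatments in either line, and the responses differed by 0.67 (adjusted p = 0.000386). Of the factors that bind the SXY module, RFX5, RFXANK and NFYC fell in Y220C cells, by 0.28, 0.27 and 0.22, and their responses differed between the lines. NFYB fell in both lines, by 0.38 in Y220C cells and 0.41 in null cells, and the coactivator EP300 rose by 0.30 in each.

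Of 7 interferon receptors and kinases, 1 rose and 1 fell in each line, a share below that of all genes in Y220C cells (48.5%) and near it in null cells (28.1%). IFNGR1, the ligand-binding chain of the interferon gamma receptor, rose by 0.34 in Y220C cells (adjusted p = 1.60e-05) and had -0.01 in null cells. IFNGR2, the second chain, fell by 0.14 in Y220C cells (adjusted p = 0.0257) and rose by 0.22 in null cells (adjusted p = 0.00130), and JAK2 fell by 0.23 in null cells (adjusted p = 0.00888). Of 5 other partners of B2M, HLA-G and CD1D had too few reads to test. HFE, which takes part in iron sensing, and FCGRT, the neonatal Fc receptor chain, had 0.16 and 0.09 in Y220C cells, which did not pass, and rose in null cells by 0.28 (adjusted p = 0.00279) and 0.21 (adjusted p = 0.0131).

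The pattern over the 16 libraries was compared by Pearson's r of log2 CPM, given as a description, since the libraries share 4 group means. TAP1 ran most closely with PNPLA6 (0.983), PDIA6 (0.973) and CALR (0.970), among 12220 protein-coding candidates. B2M ran most closely with CTSD (0.944), PHF1 (0.943) and ANXA5 (0.942), and HLA-B with NR1H2 (0.952) and ATP6V1F (0.947). Among the 9, HLA-C and HLA-E had an r of 0.96 over the 16 libraries and 0.80 after the group means were removed, and HLA-B and TAP1 had 0.92 and 0.90. B2M and TAP2 had -0.73 over the 16 libraries and 0.71 after the group means were removed.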

How the data were processed

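Poly(A) RNA of 16 libraries was read from tables with 1 line per transcript in the layout of Salmon. Per the file headers, the authors estimated counts per transcript, which carry no normalization. The deposited TPM are scaled to effective length and to a common sum, per the column names. Lengths in other columns were likewise deposited. The submitters' processing notes name FastQC 0.11.8 and hg38. Quantifier version, trimming and strandedness are not given in the sources.

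Of 197653 transcripts, 193348 (97.8%) matched GENCODE 29 by identifier without version, and their counts were summed into 56865 genes and rounded. Group labels came from the samples' genotype and treatment. Chi-square per gene between replicates was 2.52 to 11, so none was a duplicate. Genes were tested in edgeR 4.0.16 (R 4.3.3) with its quasi-likelihood test, filterByExpr and TMM, in 1 fit of 16 libraries with 4 group means and 12 residual degrees of freedom. P-values were adjusted by Benjamini-Hochberg over all 15687 genes tested, with a threshold of 0.05. SE was taken from the log2 fold change and its F statistic. Levels are CPM, and TPM where genes are compared. A gene with 0 reads could hold up to 3 reads' worth of signal, and such limits cover counting error only. The steps were tested on simulated data. Whether replicate numbers pair libraries is not stated in the labels, so it was checked by correlating deviations from the group means. Same-numbered libraries of Null MS78 and Y220C MS78 had r of 0.15 to 0.53, over 0.1 in 4 of 4 pairs, and those of the DMSO groups did so in 3 of 4. Across treatments 0 of 16 same-numbered pairs did (-0.50 to 0.01), and each of these pairs differs in PTPRC reads. Differently numbered libraries of different groups had r over 0.1 in 29 of 72 pairs, against 7 of 24 same-numbered pairs. Same-numbered libraries within a treatment also share their state of PTPRC reads. The check could therefore not settle whether numbers pair libraries. The main fit held no replicate block, and a block was tried only as an alternative.

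Alternatives were DESeq2 1.42.0 and its size factors, other filters, counts rebuilt from TPM (length-scaled TPM), a replicate block, a term for PTPRC reads (10 or more), either set of libraries, only the groups compared, leaving out each library, and summed overlapping or similar genes. The 9 genes and all lists were chosen with earlier results of these data known. By rule the text names all 9 genes, up to 4 called genes of each list by size of change (or up to 2 where none passed) and the 3 genes most alike to HLA-B, B2M and TAP1. Some genes that the rule took are not reported here. Genes named to spell out a small count, in comparisons of marker lists or with responses that differed between the lines were chosen after their values were seen. Promoter sequences are RefSeq's, on GRCh38.p14, matched by symbol.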

Additional observations from a re-analysis of the deposited data

Results flagged for a closer look

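Of 36 sets of 4 libraries (9 genes in 4 groups), 1 held a library far from the others. For HLA-B in Null MS78, replicate 1 was the lowest, with a gap of 0.84 of the group's range to the next library, above Dixon's 95% limit. Chance gives about 1 such set in 20. This library is the 1 in its group without PTPRC reads, and their part in its level was not tested.

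The response to MS78 differed between the lines, by the interaction test of edgeR at an adjusted p under 0.05, for 17 of 50 genes tested from the 9 and the lists of the class I pathway, where 26.8% of all genes passed. Among the 9 genes the difference (p53-Y220C minus p53-null cells, log2 scale) was 0.972 for HLA-F, 0.198 for B2M and 0.272 for TAP1. Among loading chaperones it was 0.603 for CALR, 0.467 for CANX and 0.38 for PDIA3. The interferon-inducible proteasome activator gene PSME1 had -0.356. Among the factors of class I promoters it was -0.354 for RFX5, -0.331 for RFXANK, -0.247 for NFYC, 0.197 for CREB1, 0.67 for IRF1, -0.329 for IRF9, 0.165 for NFKB1 and -0.216 for KAT2B. The interferon gamma receptor chains had opposite signs, 0.356 for IFNGR1 and -0.351 for IFNGR2.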

How the results depend on the processing

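Counts of the 9 genes called were within 1.5 times of the main count in most alternatives, with these exceptions. With length-scaled TPM, 4 of the 9 were called for MS78 in Y220C cells, against 8. Within the libraries with PTPRC reads, 0 were called for the difference between the lines, against 3. Within those without, 4 were called for MS78 in Y220C cells (against 8), 0 for MS78 in null cells (against 4), 0 for the difference and 4 for the lines under MS78 (against 7), each from fits with fewer samples. Leaving out 1 library gave 6 to 8 calls for MS78 in Y220C cells, 3 to 4 in null cells, 2 to 4 for the difference, 7 for the lines under DMSO and 7 to 8 under MS78, and 0 for PTPRC reads.

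Directions changed for NLRC5 with length-scaled TPM (0.53 for MS78 in Y220C cells, 0.37 in null cells, 0.22 for the lines under DMSO) and within the libraries without PTPRC reads (0.075 for MS78 in null cells, -0.38 for the difference, 0.054 for the lines under DMSO, -0.33 under MS78). With the PTPRC term, MS78 in null cells gave -0.0083 for HLA-B and -0.16 for HLA-F, and within the libraries without PTPRC reads -0.080 for HLA-B, -0.27 for HLA-F and -0.0025 for B2M. HLA-E had -0.040 for the difference within the libraries with PTPRC reads, and HLA-C 0.0053 for the lines under MS78 within those without. TAP2 had -0.044 for PTPRC reads with length-scaled TPM. None of these values passed the test, and the cause was not tested. Leaving out 1 library turned the sign of HLA-B (-0.0091 to 0.097) and HLA-F (-0.030 to 0.14) for MS78 in null cells, NLRC5 for MS78 in Y220C cells (-0.15 to 0.098) and for the lines under DMSO (-0.079 to 0.13), and TAPBP for PTPRC reads (-0.0086 to 0.051).

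With a replicate block over all 16 libraries, 8 of the 9 were called for MS78 in Y220C cells, 4 in null cells, 3 for the difference, 7 for the lines under either treatment and 0 for PTPRC reads, as without it, and NLRC5 had 0.000266 for MS78 in Y220C cells. In the MS78 groups alone, a block chosen after seeing the data gave 8 calls for the lines, as many as without it there, HLA-C being the 1 added to the 7. With 14 to 117 reads per library, depth limits HLA-F and NLRC5 most.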
